A study of Homo sapiens with 10 samples.

Results

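Recurrent sites deep inside gene bodies were places where a peak summit came back within 250 bp in several peak lists, far from any annotated gene boundary. The lists came from chromatin immunoprecipitation with sequencing (ChIP-seq) in 22RV1, a long-established line of human prostate cancer cells. A site was taken from the HA-RBN list when its summit, the base of highest pileup, lay inside a protein-coding gene and over 10 kb from the start or end of any gene. It also had to lie within 250 bp of a summit in the EV(RBN) list and of a summit in at least 1 of the 4 remaining lists. Of 242130 HA-RBN summits on chromosomes 1-22 and X, 61879 lay this deep inside protein-coding genes and 1615 of those were recurrent. That is 2.61% of the deep summits (exact 95% interval 2.49% to 2.74%), against 4.77% of HA-RBN summits wherever they lay. The sites were chosen by the presence of summits in these lists, so counts of lists and the share that recurred are descriptions, and no test was made on them.

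The 6 libraries, 1 per group, were HA-RBN (a plasmid for an HA-tagged protein, named RBN in the labels) and EV(RBN), its empty vector; RB1 siRNA and control siRNA; and HA-RB(245-255) (a plasmid with HA-tagged RB residues 245-255) and EV(245-255), its empty vector. All came from 22RV1 cells after transfection, fixed with 1% formaldehyde for 10 minutes. The labels name neither the protein that was precipitated nor a clone, and the series title concerns RB and TRIM24, a co-regulator of nuclear receptors. One field describes the HA-RB(245-255) library as a control while its title names the construct, and the title was followed. A further 4 IgG libraries, of the siRNA and 245-255 groups, were not analysed here. The series holds no IgG library for HA-RBN or EV(RBN). Summits within 1 kb of an end of a marker gene were listed in HA-RBN for 5 of 7 prostate epithelial, 6 of 6 neuroendocrine and 3 of 6 other-tissue genes. The HA-RBN list alone thus does not separate the cell type. In the same order the counts were 5, 4 and 1 in EV(RBN), 3, 1 and 0 in RB1 siRNA and 2, 1 and 0 in control siRNA. They were 4, 3 and 1 in HA-RB(245-255) and 3, 1 and 0 in EV(245-255). With so few genes, no cell type was read from these counts. With 1 library per group there is no replicate, every interval covers counting error only, and no p-value can be given. A peak list holds no level of RB1, so the knockdown and the plasmids cannot be checked in it.

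RB, the retinoblastoma protein, restrains the cell cycle by binding E2F transcription factors and recruits proteins that alter chromatin. Most factors of this kind gather at promoters, the stretches where transcription starts. Many long genes also hold internal promoters and enhancers in their introns, and an internal promoter gives a shorter transcript with its own first exon. RefSeq lists such internal transcript starts, and they lie inside the gene that the annotation draws from its outermost start to its outermost end.

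The depth of a site is given here as fragments, the number of sequenced DNA fragments stacked at the summit, recovered from the authors' fold enrichment and p-value of each peak. The list background was 0.634 fragments per base in HA-RBN and 0.367 in EV(RBN), 0.539 in RB1 siRNA and 0.413 in control siRNA, and 0.250 in HA-RB(245-255) and 0.187 in EV(245-255). Enrichment is fragments over that background. Peaks were narrow in HA-RBN and EV(RBN), with median widths of 522 and 451 bp. They were wide in the other lists, with medians of 50637 bp in RB1 siRNA, 82320 bp in control siRNA, 18107 bp in HA-RB(245-255) and 22128 bp in EV(245-255). A wide interval carries only its highest summit, so a site with no summit in one of these 4 lists is not shown to lack signal there.

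A clear feature that the choice of sites did not use was their position at internal transcript starts. Of the 1535 sites on the chromosomes whose starts were used, 131 (8.53%, interval 7.18% to 10.0%) lay within 500 bp of a transcript start that RefSeq lists inside the gene. All 131 of these starts belonged to the host gene itself, which the distance of over 10 kb from any gene's outer ends largely fixes. Among the other deep HA-RBN summits, 377 of 57187 did (0.659%, 0.595% to 0.729%), and over all deep summits the share was 0.865%. PDE4DIP, MGA, NFKBIZ, ASNS, ABCD3 and ZNF331 had the most HA-RBN fragments among sites in all 6 lists whose summit fell inside the listed start window.

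These 6 windows carry sites that stood in every list and are printed for that reason. Each runs from 250 bases before to 50 bases after a listed start, 5′ to 3′ on the gene's strand, from the RefSeq promoter table of GRCh38.p14. Capitals mark matches, on either strand, to the short motifs searched, and a match describes letters and is not a binding site. PDE4DIP, which encodes the centrosome and Golgi scaffold myomegalin, has its window at chr1:148951888-148952187 (plus strand), with the HA-RBN summit at base 223. The window of MGA, a MAX partner in transcription repression, lies at chr15:41660497-41660796 (plus strand) with the summit at base 68. NFKBIZ, which encodes the inducible nuclear factor IκBζ, has its window at chr3:101849264-101849563 (plus strand) with the summit at base 12. That of ASNS, asparagine synthetase, lies at chr7:97872116-97872415 (minus strand) with the summit at base 45. ABCD3, a peroxisomal transporter, has its window at chr1:94418139-94418438 (plus strand) with the summit at base 37, and ZNF331, a zinc finger protein, at chr19:53520764-53521063 (plus strand) with the summit at base 173.
PDE4DIP: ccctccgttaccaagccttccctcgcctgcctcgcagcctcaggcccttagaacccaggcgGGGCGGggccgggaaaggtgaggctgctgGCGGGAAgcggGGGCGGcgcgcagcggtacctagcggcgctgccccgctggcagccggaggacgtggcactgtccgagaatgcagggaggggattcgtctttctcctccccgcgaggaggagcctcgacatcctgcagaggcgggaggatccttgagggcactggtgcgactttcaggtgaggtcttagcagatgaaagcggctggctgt
MGA: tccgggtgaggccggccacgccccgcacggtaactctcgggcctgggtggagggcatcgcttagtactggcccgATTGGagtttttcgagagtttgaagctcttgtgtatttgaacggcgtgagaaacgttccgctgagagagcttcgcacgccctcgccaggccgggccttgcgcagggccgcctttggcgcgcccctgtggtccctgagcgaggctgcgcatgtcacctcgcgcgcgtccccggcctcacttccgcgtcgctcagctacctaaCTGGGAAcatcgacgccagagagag
NFKBIZ: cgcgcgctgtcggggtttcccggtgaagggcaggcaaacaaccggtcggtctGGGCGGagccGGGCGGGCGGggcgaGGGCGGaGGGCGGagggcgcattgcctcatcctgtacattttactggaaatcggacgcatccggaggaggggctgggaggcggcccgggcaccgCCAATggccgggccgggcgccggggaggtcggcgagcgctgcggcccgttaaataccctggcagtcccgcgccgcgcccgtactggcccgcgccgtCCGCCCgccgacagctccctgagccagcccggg
ASNS: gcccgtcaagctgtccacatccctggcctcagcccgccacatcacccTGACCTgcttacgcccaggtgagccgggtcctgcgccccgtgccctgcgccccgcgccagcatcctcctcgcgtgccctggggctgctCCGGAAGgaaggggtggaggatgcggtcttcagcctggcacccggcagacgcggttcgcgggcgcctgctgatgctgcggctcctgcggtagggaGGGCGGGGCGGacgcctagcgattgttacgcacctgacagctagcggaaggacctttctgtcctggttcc
ABCD3: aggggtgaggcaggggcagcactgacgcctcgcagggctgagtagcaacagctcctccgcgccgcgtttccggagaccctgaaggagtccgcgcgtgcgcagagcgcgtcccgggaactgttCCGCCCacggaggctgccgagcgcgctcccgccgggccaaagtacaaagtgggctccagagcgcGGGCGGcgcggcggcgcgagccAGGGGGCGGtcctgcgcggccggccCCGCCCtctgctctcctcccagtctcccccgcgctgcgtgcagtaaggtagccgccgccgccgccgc
ZNF331: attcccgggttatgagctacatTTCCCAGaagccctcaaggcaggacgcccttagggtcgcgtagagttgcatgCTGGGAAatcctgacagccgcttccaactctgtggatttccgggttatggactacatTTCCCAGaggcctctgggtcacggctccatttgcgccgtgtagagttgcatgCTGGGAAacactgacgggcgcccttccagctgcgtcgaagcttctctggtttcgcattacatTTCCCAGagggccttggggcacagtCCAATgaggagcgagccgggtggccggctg

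The NFKBIZ window held 6 copies of GGGCGG, the core of the GC box bound by SP1 and KLF factors, with overlapping copies counted, and PDE4DIP held 2. ZNF331 held none, and instead carried 5 copies of TTCCCAG, a motif that was searched only after these windows had been read. GGGCGG occurred in 61.6% (49.5% to 72.8%) of the 73 windows that hold a summit of a recurrent deep site, against 45.0% of all 34961 listed windows of the same length. CCAAT, the box bound by NF-Y, occurred in 43.8% (32.2% to 55.9%) of them, against 34.6% of all windows. The ETS core CCGGAAG was at 11.0% against 10.3%, the E2F core TTCCCGC at 6.85% against 6.57%, the NRF1 core GCATGCG at 4.11% against 3.90%, the YY1 core AAGATGG at 8.22% against 5.84% and the CREB core TGACGTC at 6.85% against 3.45%. Each of these 5 shares over all windows lay inside the interval of the share in the 73. AGAACA, a core of androgen receptor sites, occurred in 8.22% (3.08% to 17.0%) against 14.8%, and AGGTCA, the core of retinoid receptor sites, in 12.3% against 13.8%. The AP-1 core TGANTCA stood at 5.48% against 7.68%, the forkhead core TGTTTAC at 5.48% against 3.42%, AGATAA of GATA factors at 5.48% against 10.3% and AGGGGGC of CTCF at 16.4% against 14.4%. For TTTATTG of HOXB13 the shares were 1.37% and 4.0%, for the repeat TGTGTGT 5.48% and 6.12%, for the satellite word GGAATGG 5.48% and 4.30%, and for TTCCCAG 9.59% and 10.8%. The windows with such a site had a median GC content of 63.7% and 23 CpG dinucleotides, against 58.7% and 14 over all windows.

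The share at internal starts went up with the number of lists that shared the site. It was 4.56% (3.19% to 6.28%) for sites in 3 lists, 9.09% (6.38% to 12.5%) in 4, 13.6% (9.43% to 18.7%) in 5 and 18.8% (13.1% to 25.6%) in 6. Sites in more lists were also deeper, and depth alone goes with starts, so the shares were set side by side in bins of depth. Sites with 2 to 4 HA-RBN fragments were at starts in 1.22% (0.396% to 2.82%), against 0.385% (0.331% to 0.446%) of the other deep summits in that bin. With 5 to 9 fragments the shares were 5.39% (3.64% to 7.65%) and 1.37% (1.15% to 1.62%), and with 10 to 19 fragments 15.1% (11.7% to 19.1%) and 6.39% (4.78% to 8.34%). At 20 or more fragments they were 19.3% (14.1% to 25.4%) and 13.3% (7.82% to 20.7%). The intervals were apart in the middle bins of 5 to 9 and 10 to 19 fragments, and overlapped in the lowest and the highest bin. Depth was not matched inside a bin. Of those with at least 6 fragments, 781 of 1033 sites and 2104 of 5895 other deep summits had at least 8. Whether depth inside the bins goes with the remaining difference was not tested. Recurrence was also read from the starts, at all depths together. Of deep summits at a listed start, 131 of 508 were recurrent (25.8%, 22.0% to 29.8%), against 1404 of 58214 away from one (2.41%, 2.29% to 2.54%). The share at starts was close to the 26.2% (25.6% to 26.9%) of summits within 1 kb of a boundary of a protein-coding gene, where 4319 of 16460 recurred.

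**Figure D1:**
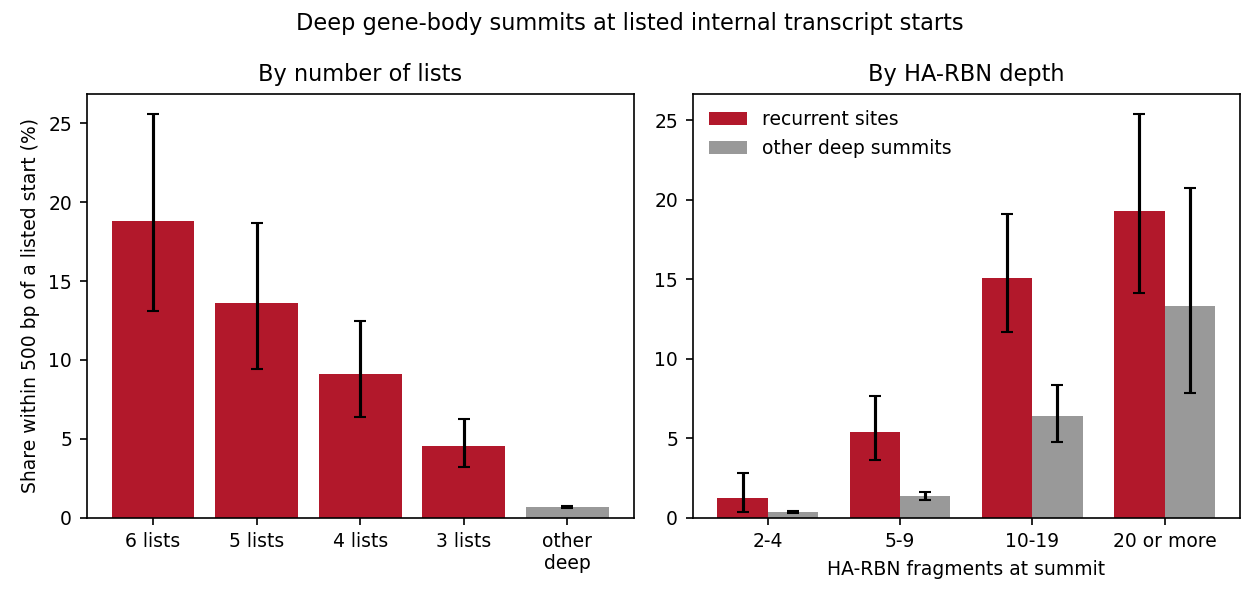
Share of HA-RBN summits deep inside gene bodies that lie within 500 bp of a transcript start listed by RefSeq, in percent, by the number of lists that share the site (left) and by HA-RBN fragments at the summit (right). Bars are shares and whiskers exact 95% intervals; the share is 18.8% for sites in 6 lists and 0.659% for the other deep summits.

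Most internal starts had no such site. RefSeq lists 1948 starts that lie inside a protein-coding gene and over 10 kb from any gene end, and 163 of them (8.37%, 7.18% to 9.69%) had a recurrent deep site within 500 bp. A summit of any kind stood within that distance at 30.0% of the internal starts in HA-RBN and 20.8% in EV(RBN). The shares were 14.3% in RB1 siRNA and 10.4% in control siRNA, and 17.6% in HA-RB(245-255) and 16.9% in EV(245-255). At the 32840 other listed starts the shares were higher in every list, at 44.2% in HA-RBN and 32.9% in EV(RBN), 22.6% in RB1 siRNA and 18.9% in control siRNA, and 28.6% in HA-RB(245-255) and 28.5% in EV(245-255). In each list, then, a summit was listed less often at internal starts than at the other listed starts, and the intervals did not overlap. In the lists other than HA-RBN and EV(RBN), the lower share does not show lower occupancy. There a wide interval carries only its highest summit, so a start inside it can have signal without a summit of its own.

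The sites at internal starts were deep ones. Their median was 15 HA-RBN fragments (interval 13 to 17), against 7 (6 to 7) for the recurrent sites away from a listed start. In EV(RBN) the medians were 6 fragments at starts and 4 away from them. In the same order they were 30 and 14 in RB1 siRNA, 26 and 13 in control siRNA, 14 and 8 in HA-RB(245-255), and 18 and 8 in EV(245-255), over the sites with a summit in that list. The difference had the same direction in all 6 lists.

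At the PDE4DIP start, 28 bp from the summit at chr1:148952110 and 143676 bp from the outer start of the gene, 125 HA-RBN and 32 EV(RBN) fragments were stacked. The same site had 229 RB1 siRNA and 243 control siRNA fragments, and 63 HA-RB(245-255) and 68 EV(245-255) fragments. Copies of PDE4DIP sequence lie elsewhere on chromosome 1, so reads there may be shared between near-identical places. The outer start of the gene had 4 HA-RBN fragments, so the internal site was the deeper of the pair.

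At MGA the internal site was also the deeper one, by less. That site, at chr15:41660564 and 159 bp from the nearest listed start, which is not the one whose window is printed above, had 72 HA-RBN and 15 EV(RBN) fragments, 103 RB1 siRNA and 109 control siRNA fragments, and 35 HA-RB(245-255) and 35 EV(245-255) fragments. The outer start, 39340 bp away, had 49 HA-RBN fragments. NFKBIZ had 50 HA-RBN and 16 EV(RBN) fragments, 156 RB1 siRNA and 149 control siRNA, and 46 HA-RB(245-255) and 50 EV(245-255), at chr3:101849275, with no HA-RBN summit listed within 1 kb of its outer start. Both sites thus had like numbers of fragments within each siRNA and 245-255 pair. Enrichment was lower in RB1 siRNA than in control siRNA, at 191 and 264 for MGA and 290 and 361 for NFKBIZ. In HA-RB(245-255) and EV(245-255) it was 140 and 187 for MGA and 184 and 267 for NFKBIZ. Over all summits that the lists of a pair share, the median log2 ratio of enrichment was also below 0, at -0.13 and -0.42.

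ASNS, which makes asparagine and is switched on by the amino acid stress response, had 48 HA-RBN and 14 EV(RBN) fragments at chr7:97872371. The nearest listed start was 37 bp away and is not the one whose window is printed above. It had 86 RB1 siRNA and 78 control siRNA fragments, and 47 HA-RB(245-255) and 50 EV(245-255) fragments. ABCD3 had 44 HA-RBN and 12 EV(RBN), 107 RB1 siRNA and 81 control siRNA, and 55 HA-RB(245-255) and 50 EV(245-255) fragments at chr1:94418175. Neither gene had an HA-RBN summit listed at its outer start, so in both the listed signal of the HA-RBN library lay at the internal one.

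ZNF331 had 42 HA-RBN and 18 EV(RBN) fragments, 95 RB1 siRNA and 65 control siRNA, and 37 in each of HA-RB(245-255) and EV(245-255) at chr19:53520936, with 9 HA-RBN fragments at the outer start. PHF19, a partner of the Polycomb complex PRC2, had 36 HA-RBN and 16 EV(RBN) fragments, 108 RB1 siRNA and 76 control siRNA, and 33 HA-RB(245-255) and 50 EV(245-255) at chr9:120868766. TRIM36, a ubiquitin ligase, had 47 HA-RBN and 16 EV(RBN), 108 RB1 siRNA and 74 control siRNA, and 44 HA-RB(245-255) and 51 EV(245-255) at chr5:115170178. These 3 were listed everywhere, as was ACLY, the enzyme that makes cytosolic acetyl-CoA, with 40 HA-RBN and 9 EV(RBN) fragments, 51 RB1 siRNA and 39 control siRNA, and 12 HA-RB(245-255) and 9 EV(245-255).

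Other deep sites at starts were listed in only part of the libraries. LUC7L2, a splicing factor whose gene is also annotated as the read-through FMC1-LUC7L2, had 89 HA-RBN and 18 EV(RBN) fragments and 145 RB1 siRNA and 153 control siRNA fragments, with no summit in the 245-255 pair. THRAP3, a transcription and splicing co-factor, had 44 HA-RBN and 15 EV(RBN) and 90 RB1 siRNA and 63 control siRNA fragments, again with none in the 245-255 pair. SMTN, the smooth muscle protein smoothelin, was the converse, with 35 HA-RBN and 15 EV(RBN), 20 HA-RB(245-255) and 17 EV(245-255) fragments and no summit in the siRNA pair. Several long neuronal or regulatory genes had modest sites at internal starts, among them NRXN3 with 14 HA-RBN and 5 EV(RBN) fragments, 1109082 bp into the gene and 75 bp from a listed start. DLG2, a synaptic scaffold, had 10 HA-RBN and 4 EV(RBN) fragments 202 bp from a start, and HDAC9, a histone deacetylase, had 9 HA-RBN and 3 EV(RBN) fragments 12 bp from one.

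Many sites lay in a host whose outer start also had a summit. For the 1304 sites whose host has a listed strand, an HA-RBN summit lay within 1 kb of the outer start in 846 (64.9%). A host with several sites counts once for each, and the share was not compared with hosts of the other deep summits. In the narrower window of 500 bp, 44.2% of the 32840 listed starts that are not deep inside genes had an HA-RBN summit. The site inside the gene had more fragments than the outer start in 329 of these and fewer in 467. For the 131 sites at an internal start the outer start had a summit in 72 (55.0%), and the inner site was deeper in 40 of those.

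The deepest sites of all lay away from listed starts, as most sites did. Of the 15 sites in all 6 lists with the most HA-RBN fragments, 12 were over 500 bp from any listed start. Over all sites in 6 lists, 18.8% (13.1% to 25.6%, 31 of 165) were within 500 bp of one. The count among the 15 is near that share and says nothing particular about the deepest sites. EXD3, an exonuclease-domain gene, led with 198 HA-RBN and 43 EV(RBN) fragments at chr9:137329620, 22724 bp from the nearest gene end. There RB1 siRNA had 265 and control siRNA 300 fragments, and HA-RB(245-255) had 352 and EV(245-255) 417. The recovered local background at this site was 34.1 times the list background in HA-RBN and 16.4 times in EV(RBN), 35.2 times in RB1 siRNA and 1.00 times in control siRNA, and 214 times in HA-RB(245-255) and 369 times in EV(245-255). A local background over 10 times that of the HA-RBN list was found at 35 of the 1615 sites, among them GALNT9 at 67.9 times, BRSK2 at 38.9, GRK1 at 26.8 and ATF3 at 21.9.

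GRK1, rhodopsin kinase, had 176 HA-RBN and 52 EV(RBN) fragments at chr13:113725593, 166 RB1 siRNA and 219 control siRNA fragments, and 176 HA-RB(245-255) and 182 EV(245-255) fragments. BRSK2, a kinase of neurons and islet cells, had 163 HA-RBN and 31 EV(RBN) fragments, 108 RB1 siRNA and 60 control siRNA, and 72 HA-RB(245-255) and 93 EV(245-255) fragments at chr11:1446173. Both genes are best known from tissues other than prostate. DHX9, an RNA helicase that most cells use, had 158 HA-RBN and 35 EV(RBN), 123 RB1 siRNA and 92 control siRNA, and 118 HA-RB(245-255) and 113 EV(245-255) fragments at chr1:182869466, 30119 bp into the gene, where its outer start had 20 HA-RBN fragments.

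COLEC11, a secreted lectin of innate immunity, had 120 HA-RBN and 40 EV(RBN) fragments, 162 RB1 siRNA and 156 control siRNA, and 147 HA-RB(245-255) and 180 EV(245-255), only 10308 bp into its gene. ATF3, a transcription factor that stress induces, had 117 HA-RBN and 43 EV(RBN) fragments, 357 RB1 siRNA and 288 control siRNA, and 199 HA-RB(245-255) and 226 EV(245-255) at chr1:212608479. That ATF3 site stood 6539 bp from the nearest listed start and held the most RB1 siRNA fragments of the 15. CACNA1C, the pore subunit of an L-type calcium channel, had 92 HA-RBN and 22 EV(RBN), 78 RB1 siRNA and 100 control siRNA, and 34 HA-RB(245-255) and 47 EV(245-255) fragments, 549554 bp into the gene.

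ITGAE, the integrin subunit CD103, had 86 HA-RBN and 27 EV(RBN) fragments, 159 RB1 siRNA and 132 control siRNA, and 104 HA-RB(245-255) and 113 EV(245-255). RPGRIP1, a ciliary protein of photoreceptors, had 71 HA-RBN and 28 EV(RBN), 151 RB1 siRNA and 122 control siRNA, and 84 HA-RB(245-255) and 81 EV(245-255). GDF1, a growth factor gene that shares its transcript with the ceramide synthase gene CERS1, had 68 HA-RBN and 33 EV(RBN), 94 RB1 siRNA and 110 control siRNA, and 67 HA-RB(245-255) and 80 EV(245-255). RBCK1, a subunit of the linear ubiquitin ligase, closed the 15 with 48 HA-RBN and 16 EV(RBN), 70 RB1 siRNA and 59 control siRNA, and 30 HA-RB(245-255) and 32 EV(245-255). HFM1, a helicase of meiosis, stood apart in shape. Its HA-RBN peak at chr1:91387413 was 328 bp wide, the narrowest of the 15, with 64 HA-RBN and 48 EV(RBN), 86 RB1 siRNA and 76 control siRNA, and 47 HA-RB(245-255) and 39 EV(245-255) fragments.

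**Figure D2:**
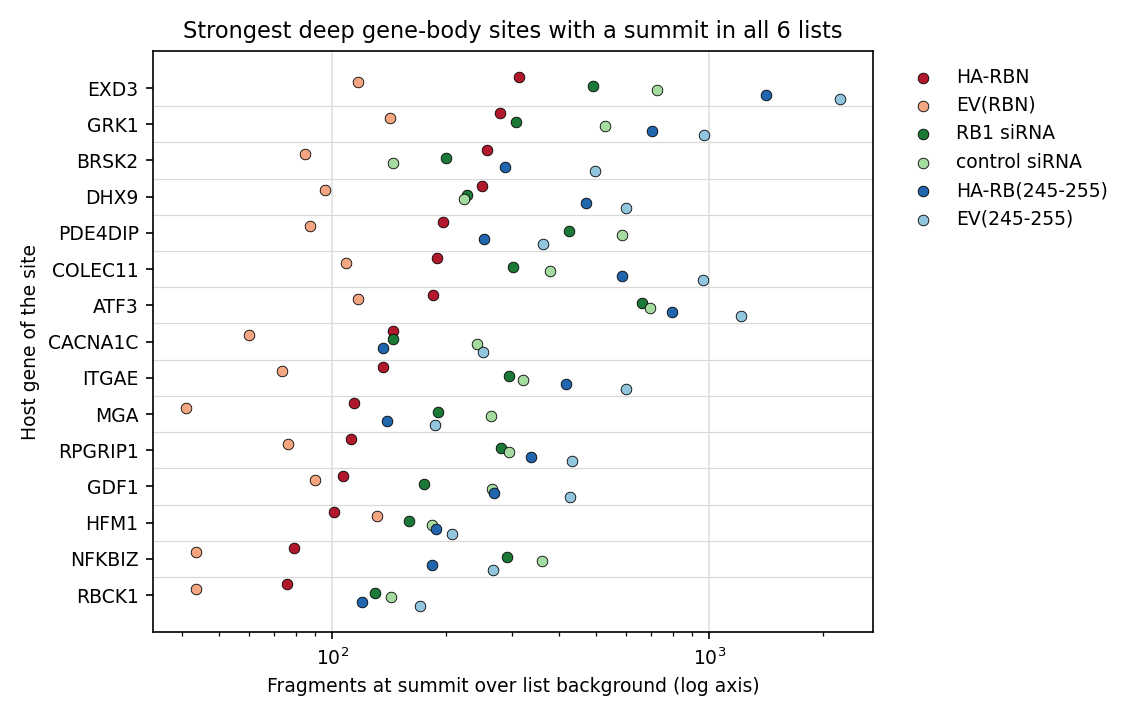
Enrichment at the 15 sites in all 6 lists with the most HA-RBN fragments, as fragments at the summit over the background of the list (log axis), 1 point per library and 1 row per host gene. HA-RBN lies above EV(RBN) at 14 of the 15 sites and below it at HFM1. The sites were picked for their HA-RBN fragments, which favours HA-RBN in that pair, so this count is no result about the insert. Levels can be set side by side within a pair, since backgrounds differ between experiments.

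Some of the deepest sites were missing a summit in 1 or more lists. GALNT9, a glycosyltransferase, held the most HA-RBN fragments of all 1615 sites, 363 in HA-RBN and 102 in EV(RBN), with 154 in HA-RB(245-255) and no summit in the other 3. CLPTM1L had 202 HA-RBN and 62 EV(RBN), 120 RB1 siRNA, and 119 HA-RB(245-255) and 74 EV(245-255) fragments, with none listed in control siRNA. SNX30 had 154 HA-RBN and 53 EV(RBN), 73 RB1 siRNA and 93 control siRNA, and 43 EV(245-255) fragments, with none listed in HA-RB(245-255). ATP9B had 135 HA-RBN and 33 EV(RBN), 126 control siRNA, and 81 HA-RB(245-255) and 105 EV(245-255) fragments, with none listed in RB1 siRNA. SLC8A2, CELF5 and LRRC27 had between 123 and 131 HA-RBN fragments. By the rule, a summit could be missing only in the 4 lists of wide intervals.

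Across all 1615 sites the typical depth was low. The median was 7 HA-RBN fragments (range 2 to 363) and 4 EV(RBN) fragments (range 2 to 102). Over the sites with a summit in the list, it was 15 in RB1 siRNA and 15 in control siRNA, and 8 in HA-RB(245-255) and 9 in EV(245-255). At least 20 HA-RBN fragments were found at 208 sites (12.9%), against 126 of the 60264 other deep summits (0.209%), whose median was 3. Recurrent sites within 1 kb of a protein-coding gene end had a median of 18 HA-RBN fragments, and recurrent sites outside genes and over 10 kb from any gene had 7. In HA-RBN depth the recurrent deep sites thus stood with the intergenic ones and below those at gene ends. In RB1 siRNA they were deeper than the intergenic sites, with medians of 15 (14 to 17) and 11 (10 to 12), and likewise in control siRNA, with 15 (13 to 16) and 11 (10 to 12). In the 245-255 pair the intervals met, at 8 (8 to 9) and 7 (7 to 8) in HA-RB(245-255) and 9 (8 to 10) and 8 (7 to 9) in EV(245-255). HA-RBN peaks at the sites were 797 bp wide in the median, against 500 bp for the other deep summits.

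**Figure D3:**
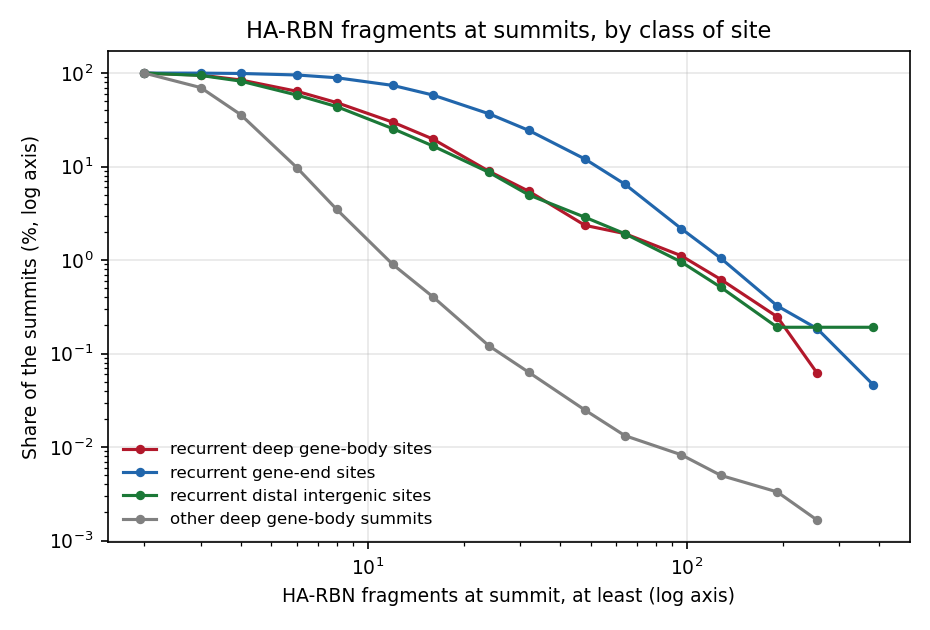
Share of summits with at least the given number of HA-RBN fragments (both axes logarithmic) for recurrent deep gene-body sites, recurrent gene-end sites, recurrent distal intergenic sites and the other deep gene-body summits. The curve of the recurrent deep sites follows the intergenic one, at 12.9% with 20 or more fragments, and lies below the gene-end curve.

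By number of lists, 813 sites (50.3%) stood in 3 lists, 390 in 4, 242 in 5 and 170 (10.5%, 9.07% to 12.1%) in all 6. The share in all 6 was 24.5% (23.2% to 25.8%) for recurrent gene-end sites and 7.78% (6.50% to 9.21%) for recurrent intergenic ones. A summit was listed at 632 sites (39.1%) in RB1 siRNA and 506 (31.3%) in control siRNA, and at 934 (57.8%) in HA-RB(245-255) and 927 (57.4%) in EV(245-255). Those lists hold 33803 and 20718 summits, and 92115 and 74193, on the chromosomes used, so the longer list of the siRNA pair also reached more sites. Within the 250 bp that the rule allows, the median distance from the HA-RBN summit was 93 bp for EV(RBN), 80 bp for RB1 siRNA, 79 bp for control siRNA and 92 bp for both lists of the 245-255 pair. At the edges of the rule, PWWP2B and IL17RA were just inside at 10005 and 10008 bp from a gene end, with 23 and 29 HA-RBN fragments, and CLEC4C and ANGEL2 just outside at 9982 and 9978 bp, with 7 and 5. At the edge of the matching window, ADARB2 and IRAK2 were kept with an EV(RBN) summit 250 bp away, and SRPK2 and CHD1L were left out at 251 and 252 bp.

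The HA-RBN insert and its empty vector were compared by the log2 ratio of their enrichments, less the median over all 28710 summits the lists share. This relative ratio had a median of 0.02 (0.00 to 0.07) over the 1615 sites, so the sites as a whole sat at the level of all shared summits. A ratio over 2-fold from that median with at least 20 fragments in both lists together was counted as higher or lower. It was higher at 101 of the 406 sites deep enough (24.9%), against 25.3% of all shared summits, and lower at 6 (1.48%), against 1.36%. Both shares were near the background and say nothing particular about the sites. Sites at internal starts had a median of 0.58 (0.46 to 0.68), and those away from starts 0.00 (-0.06 to 0.03). Recurrent gene-end sites had 0.64 (0.60 to 0.66) and recurrent intergenic sites -0.15 (-0.25 to -0.15). Internal starts thus lay with the gene ends on this measure, and their interval did not meet that of the remaining deep sites. Deeper sites had higher ratios, with a median of 0.54 for the 406 deep enough and 0.63 for all shared summits of that depth, and with at least 20 fragments in both lists together the 69 start sites had 0.70 and the 323 away from starts 0.49; depth was not matched above that floor.

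At the upper end, CFAP74, a ciliary gene, had 26 HA-RBN and 2 EV(RBN) fragments, a relative log2 ratio of 2.96 (0.97 to 6.08). NCAPG2, a condensin subunit, had 33 HA-RBN and 3 EV(RBN) fragments (2.72, 1.05 to 5.07). FAM20C, a kinase of secreted proteins, had 54 HA-RBN and 7 EV(RBN) fragments (2.21, 1.07 to 3.59). PTBP3 had 27 HA-RBN and 4 EV(RBN) fragments (2.02, 0.50 to 3.99), and COL5A1 had 20 HA-RBN and 3 EV(RBN) (interval 0.25 to 4.39). With so few EV(RBN) fragments, each of these 5 intervals was wide. The sites were picked as the highest, so that their intervals lie off 0 is no further support, and those of PTBP3 and COL5A1 include the 0.63 of all shared summits of that depth. At the lower end, LARP1B had 8 HA-RBN and 15 EV(RBN) fragments (-1.64, -3.09 to -0.31). NFIA, a nuclear factor I gene, had 7 HA-RBN and 13 EV(RBN) (-1.63, -3.20 to -0.20), and PDE10A 14 HA-RBN and 23 EV(RBN) (-1.45, -2.52 to -0.43). PCBP3 had 10 HA-RBN and 15 EV(RBN) (-1.32), and ADGRG6 had 9 HA-RBN and 13 EV(RBN) (-1.27, -2.67 to 0.07). With the authors' fold enrichment in place of fragments, 6 of these 10 ratios were still over 2-fold; FAM20C was at 0.99, PDE10A at -0.62, PCBP3 at -0.72 and ADGRG6 at -0.46.

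RB1 siRNA and control siRNA both had a summit at 278 of the sites. The relative ratio there had a median of -0.01 (-0.10 to 0.04). The ratio was over 2-fold higher at 3 of the 225 sites with 20 fragments (1.33%), against 1.91% of all shared summits, and lower at 8 (3.56%), against 1.32%. At a site both summits were matched to the HA-RBN summit, and in all shared summits to each other. These shares are therefore not strictly alike, and what the looser match adds was not tested. The 3 that were higher were AOPEP, PARD3 and GRM5. AOPEP, an aminopeptidase gene, had 84 RB1 siRNA and 26 control siRNA fragments at chr9:94783349 (1.44, 0.79 to 2.13), 27 HA-RBN and 9 EV(RBN), and 130 HA-RB(245-255) and 111 EV(245-255). PARD3, a cell polarity gene, had 25 RB1 siRNA and 10 control siRNA (1.07, -0.04 to 2.29), and GRM5, a glutamate receptor, 22 RB1 siRNA and 9 control siRNA (1.03, -0.14 to 2.34). With the authors' fold enrichment none of the 3 was over 2-fold, at 0.71 for AOPEP, 0.22 for PARD3 and 0.19 for GRM5. The lowest ratios were at ASTN2 with 9 RB1 siRNA and 19 control siRNA fragments (-1.33, -2.66 to -0.12) and DISP3 with 18 RB1 siRNA and 36 control siRNA (-1.26, -2.16 to -0.40). ESRRB, an oestrogen-related receptor, had 11 RB1 siRNA and 22 control siRNA (-1.26, -2.45 to -0.15), and CACNB2 had 9 RB1 siRNA and 17 control siRNA (-1.17, -2.52 to 0.07). ZBTB16, which encodes the zinc finger factor PLZF, followed with 16 RB1 siRNA and 28 control siRNA fragments (-1.06, -2.05 to -0.13). These 5 lay between -0.36 and -0.23 with the authors' fold, so no named siRNA ratio kept its 2-fold call.

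HA-RB(245-255) and EV(245-255) both had a summit at 504 sites, with a median relative ratio of 0.00 (-0.10 to 0.00). Over 2-fold higher were 8 of 324 (2.47%), against 1.46% of all shared summits, and lower were 10 (3.09%), against 2.28%. As in the siRNA pair, summits at a site were matched to the HA-RBN summit and not to each other, so these shares are not strictly alike. TPRG1 had 28 HA-RB(245-255) and 4 EV(245-255) fragments (2.81, 1.29 to 4.78), while it had 43 HA-RBN and 17 EV(RBN), and 43 in each siRNA library. CUX1, a homeobox factor gene, had 37 HA-RB(245-255) and 7 EV(245-255) (2.40, 1.22 to 3.81). PIK3C3, the class III lipid kinase VPS34, had 64 HA-RB(245-255) and 20 EV(245-255) (1.68, 0.93 to 2.48). At PIK3C3 the RBN pair had only 3 HA-RBN and 4 EV(RBN) fragments. On the lower side, SHC2, a signalling adaptor, had 102 HA-RB(245-255) and 301 EV(245-255) fragments (-1.56, -1.90 to -1.23). PCBP3 had 14 HA-RB(245-255) and 60 EV(245-255) (-2.10, -3.05 to -1.24), and CEP85L had 8 HA-RB(245-255) and 32 EV(245-255) (interval -3.33 to -0.85). SHC2 rested on the most fragments of these named sites and had the tightest interval. With the authors' fold the ratios were 1.01 at TPRG1, 1.13 at CUX1, 1.14 at PIK3C3, -1.30 at SHC2, -1.13 at PCBP3 and -0.83 at CEP85L.

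**Figure D4:**
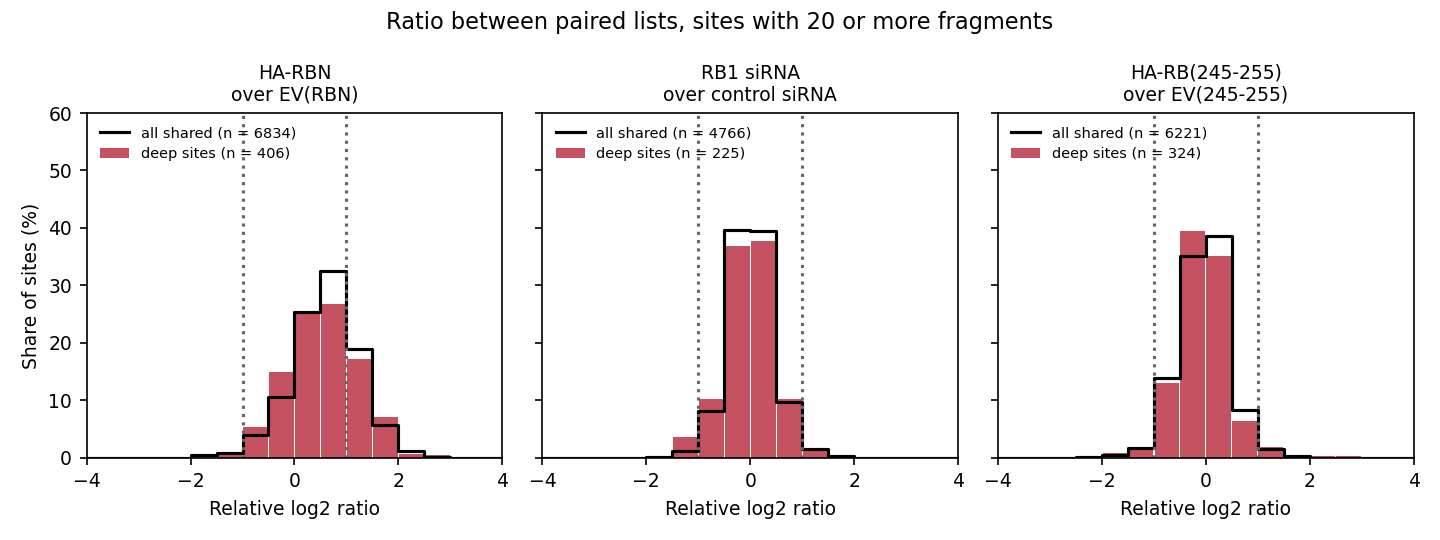
Relative log2 ratio of enrichment (0 is the median of all summits the pair shares) for recurrent deep sites (bars) and all shared summits (line) with 20 or more fragments, as the share of sites in each bin of the 3 pairs. Dotted lines mark a 2-fold difference; higher calls were 24.9%, 1.33% and 2.47% of the deep sites in the order of the panels.

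The sites were spread over 1302 host genes. A single site was found in 1060 hosts, 2 sites in 188, and 3 or more in 54. Host length had a median of 153 kb, and the sites lay 24.7 kb from the nearest gene end in the median. Of the sites, 109 were over 100 kb away, and the farthest, in AUTS2, was at 329707 bp. The rule of over 10 kb from any gene end favours long hosts and sets a floor on this distance. Neither measure was compared with the other deep summits. Along the host, 51.2% (48.4% to 53.9%) of the 1304 sites with a listed strand fell nearer the start than the end of the gene, against 50.3% (49.8% to 50.7%) of the other deep summits.

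PTPRN2, a transmembrane protein of secretory vesicles in neuroendocrine cells, held the most sites, 9 within 1049 kb. Its deepest site, at chr7:158151416, had 240 HA-RBN and 51 EV(RBN) fragments, 150 in RB1 siRNA with none listed in control siRNA, and 91 in each of HA-RB(245-255) and EV(245-255). Next came the site at chr7:158360231 with 63 HA-RBN and 12 EV(RBN), 48 control siRNA, and 52 HA-RB(245-255) and 55 EV(245-255) fragments. The other 7 had between 5 and 31 HA-RBN fragments, and none of the 9 was in all 6 lists. MAD1L1, a spindle checkpoint gene, and GSE1, a co-repressor subunit, held 5 sites each, with 7 to 19 and 4 to 38 HA-RBN fragments. ABLIM1, AHDC1, ANO10, ANO2 and CAMTA1 held 4 each, with 3 to 22 HA-RBN and 2 to 10 EV(RBN) fragments.

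**Figure D5:**
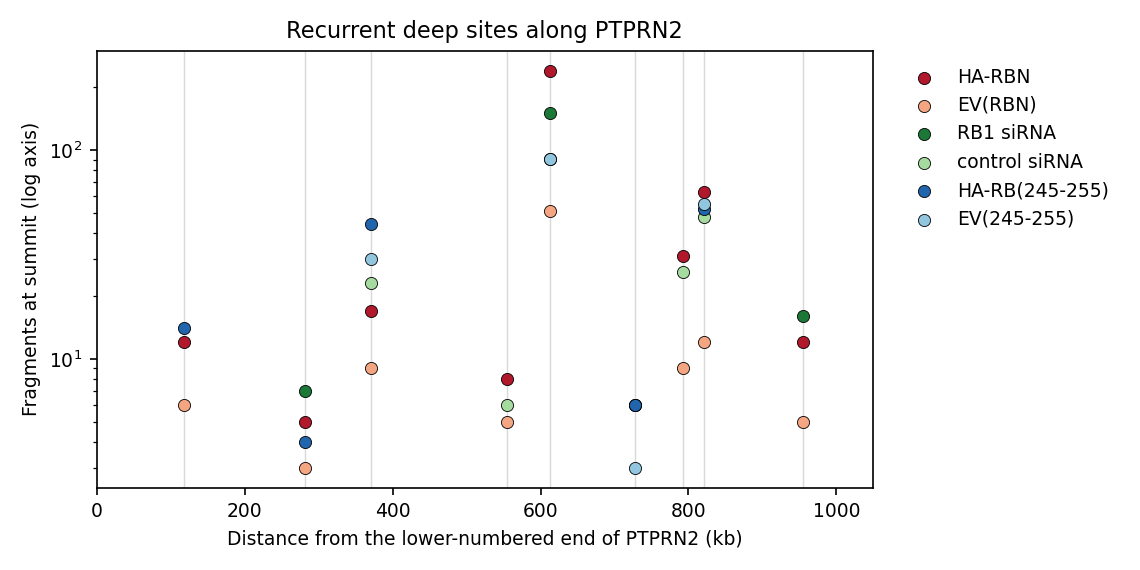
Fragments at the summit (log axis) of the 9 recurrent deep sites along PTPRN2, by distance from the gene end with the lower coordinate in kb, 1 colour per library. The site 612.4 kb along stands highest, with 240 HA-RBN and 51 EV(RBN) fragments.

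Chromosomes differed in how often deep summits recurred. On chromosome 19 it was 4.91% (3.85% to 6.15%, 71 of 1447), above the 2.61% of all chromosomes, and on X it was 1.41% (0.730% to 2.45%, 12 of 852). The other chromosomes lay between 1.92% and 3.14%. Taken at all depths, 16.3% (14.5% to 18.2%) of the sites were within 5 Mb of a chromosome end. The ends were taken as the first base of the chromosome and the furthest peak end in any list. The share was 11.3% (11.0% to 11.5%) for the other deep summits and 11.4% over all deep summits. With at least 20 HA-RBN fragments the order was reversed, though the intervals overlapped. It was then 30.8% (24.6% to 37.5%) of the sites and 42.1% (33.3% to 51.2%) of the other deep summits. Of sites at internal starts 7.63% (3.72% to 13.6%) were within 5 Mb.

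Gene lists were read for their hosts and for the share of their deep HA-RBN summits that recurred, beside the 2.61% over all genes. Of the 8199 protein-coding genes with a deep summit, 1320 (16.1%) held a site. The 1302 hosts given above count only the shortest gene over each site, and 23 sites lay over more than 1 gene. Among androgen receptor and prostate genes 7 of 23 with a deep summit held a site, 8 sites of 229 deep summits (3.49%, 1.52% to 6.77%). FKBP5, a chaperone partner and classical androgen target, had 16 HA-RBN and 7 EV(RBN), 24 RB1 siRNA and 13 HA-RB(245-255) fragments at chr6:35687959, 956 bp from a listed internal start. FOLH1, the prostate membrane antigen PSMA, had 11 HA-RBN and 5 EV(RBN) fragments and 21 in EV(245-255). NCOA2, a nuclear receptor co-activator, had 19 HA-RBN and 7 EV(RBN), 27 RB1 siRNA and 26 control siRNA, and 10 EV(245-255) fragments. The remaining hosts, NDRG1, PMEPA1, PLPP1 and ZBTB16, had 6 to 13 HA-RBN fragments, and one of the 2 ZBTB16 sites stood in all 6 lists.

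No gene of the RB, E2F and cell cycle list held a site, in 14 genes with 65 deep summits (0%, 0% to 5.52%), and this interval includes the share of all genes. Among TRIM24 and its co-regulators 3 of 12 did, 3 of 128 summits (2.34%, 0.486% to 6.70%). They included the retinoid receptor genes RARB, with 6 HA-RBN and 2 EV(RBN) fragments, and RXRA, with 19 HA-RBN and 8 EV(RBN). In the mTOR list 3 of 20 genes held one (1.67% of 180 summits, 0.345% to 4.79%). RPTOR, the raptor subunit of mTORC1, had its site in all 6 lists, with 20 HA-RBN and 7 EV(RBN), 21 RB1 siRNA and 17 control siRNA, and 23 HA-RB(245-255) and 36 EV(245-255) fragments. DEPTOR, an inhibitor of mTOR, had 9 HA-RBN and 3 EV(RBN) fragments. For the dual-specificity phosphatase and MAP kinase list the count was 4 of 20 genes (3.85% of 130 summits, 1.26% to 8.75%), namely DUSP22, STYXL1, MAPK10 and MAP3K5, with 3 to 10 HA-RBN fragments.

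Large genes at common fragile sites held many deep summits. Of 22 such genes 14 had a site, and 22 of their 1271 deep summits recurred (1.73%, 1.09% to 2.61%). CSMD1 had the deepest, with 39 HA-RBN and 9 EV(RBN), 37 RB1 siRNA and 25 control siRNA, and 37 EV(245-255) fragments. FHIT, a well-known fragile-site gene, had 7 HA-RBN and 4 EV(RBN) fragments. Among chromatin and transcription regulators 14 of 32 genes held 22 sites of 638 deep summits (3.45%, 2.17% to 5.17%). KDM4B, a histone demethylase, had 3 sites of 25, 19 and 12 HA-RBN fragments and 8, 6 and 7 EV(RBN) fragments. FOXP1, a forkhead factor, stood in all 6 lists with 10 HA-RBN and 8 EV(RBN), 53 RB1 siRNA and 33 control siRNA, and 28 HA-RB(245-255) and 27 EV(245-255) fragments. The fragile-site interval reached up to the 2.61% of all genes, and the intervals of the other 6 lists included it.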

How the data were processed

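The 6 peak lists hold 1 library per group. The tools named, per the submitters' processing notes, were MACS2 2.1.0, Bowtie 1.1.2, Trimmomatic 0.33 and bcl2fastq 2.17, on build hg38; settings and read totals were not given in the sources used here. Without a header, the deposited lists give, per peak, the authors' fold enrichment (a ratio to the caller's local background), the authors' −log10 of the p-value and of the q-value, and the summit's offset from the peak start. Peaks were listed per library, down to a −log10 p of 1.30 to 1.31.

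Fragments at each summit were solved from the fold, read as (pileup + 1)/(local background + 1), and the p-value, read as a Poisson tail; a solution was found for 99.99% to 100.00% of peaks, and the step was tested on simulated data. Pileups were whole fragments in the RBN pair and scaled ones, in steps of 0.0166 to 0.0512, in the other 4 lists. In those 4 lists up to 0.08% of peaks had several solutions, and the lowest was taken. A further solution was counted there only where its background was below 1 unit of the scaled pileup, so those at higher background are not in that share. In EV(RBN) and HA-RBN 1.23% and 0.11% had several. PCR copies are not told apart from separate molecules.

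Gene bounds were read from the RefSeq gene table (GRCh38.p14) with 59098 genes, 19974 of them protein-coding, and starts from a table of 34961 transcript starts of 27195 genes; starts on chromosome 8 were not used here, and that chromosome was left out of shares at starts. A host with no listed start counted as away from one. Exons and introns are not told apart by these tables, and sequence beyond the start windows was not used here. The host is the shortest protein-coding gene over the summit. Intervals are 95%: exact Clopper-Pearson for shares, order statistics for medians and exact conditional binomial for ratios. Shared summits are mutual nearest neighbours within 250 bp.

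Named were the 15 sites in 6 lists with the most HA-RBN fragments, the hosts with most sites, the 5 sites at each end of each ratio with 20 or more fragments, the sites nearest each threshold and the members of the gene lists. The 15 deepest sites at starts and the 8 deepest with under 6 lists were added after the values were seen. Values of some sites that these rules name are not reported here. The members, lists and rules were chosen with earlier results of these data known. Python 3.11.15, numpy 2.4.6, pandas 2.3.3, SciPy 1.17.1 and matplotlib 3.10.9 were used. Alternatives changed the distances, the lists required, the q-value, the depth and the measure.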

Additional observations from a re-analysis of the deposited data

How the results depend on the processing

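The number of recurrent deep sites, 1615, followed the matching window and the thresholds closely. It was 572 with summits matched within 100 bp and 2896 within 500 bp, 971 at 20 kb from any gene end, 492 with an HA-RBN −log10 q of at least 5, and 170 when all 4 further lists were required. It stayed within 1.5 times at 5 kb (2164), with ends of protein-coding genes only (2155), and with any 1 of the 4 lists left out (1304 to 1525). The sites in all 6 lists, 170, became 49 within 100 bp, 266 within 500 bp and 106 at 20 kb.

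The HA-RBN over EV(RBN) median of 0.02 was 0.54 with 20 or more fragments, 0.11 within 100 bp and 0.43 for sites in all 6 lists. It was 0.06 with the authors' fold enrichment and within 500 bp. RB1 siRNA over control siRNA stayed between -0.08 and 0.01 under its 5 alternatives. HA-RB(245-255) over EV(245-255) was 0.01 with the authors' fold enrichment, just outside its interval, and between -0.10 and 0.00 otherwise. With the authors' fold, an alternative chosen after seeing the data, the ratios of the 30 named sites kept their sign and lay nearer 0, and 8 fell outside their interval. Over 2-fold were then 6 of 10 in the RBN pair, 0 of 8 in the siRNA pair and 6 of 10 in the 245-255 pair. That fold adds 1 to pileup and background and divides by the local background. The share at listed starts, 8.53%, was 18.8% for sites in all 6 lists, and, with distances chosen after seeing the data, 4.69% within 150 bp and 9.25% within 1000 bp. The cause of these moves was not tested beyond the change of setting itself.

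Windows of 200 bp and 1 kb around the summit were not run, since no genome sequence was used here. No paired analysis was possible because each group has 1 library and the lists carry no replicate numbers. Leaving out a replicate was not possible for the same reason. Most sites have few fragments, so the intervals of single-site ratios are wide.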
